A study of Rattus norvegicus with 9 samples.

Results

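The genes described here move phosphate across kidney cell membranes or carry the hormone signals that set phosphate and vitamin D balance. They were chosen by name: the sodium-phosphate cotransporters Slc34a1, Slc34a2, Slc34a3, Slc20a1 and Slc20a2, the receptors Kl, Pth1r and Vdr, and the vitamin D enzymes Cyp24a1 and Cyp27b1. Of these 10 genes, 9 had a probe on the array, out of 13903 genes with a current symbol, and 8 had enough signal to be tested. No probe was matched to Cyp27b1, which is not analysed here.

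Filtered phosphate is taken back from the urine in the proximal tubule, where cotransporters in the brush border carry it into the cell together with sodium. Parathyroid hormone and the bone hormone FGF23 remove these cotransporters from the brush border, the first through Pth1r and the second through Kl, also called klotho, which pairs with an FGF receptor. Active vitamin D is made in the same tubule by Cyp27b1, destroyed by Cyp24a1 and sensed by Vdr, and it acts back on the uptake of both phosphate and calcium.

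RNA came from kidneys of male rats aged 53 days, all weaned at 30 days and then kept on a diet with 0.3% salt. The groups were Dahl S (Dahl salt-sensitive), SHR (spontaneously hypertensive rat) and Dahl R (Dahl salt-resistant), with 3 arrays each. The labels describe no transgene, surgery or salt load in any group, and do not say whether the arrays of a strain came from separate litters, so p-values measure only the spread between these samples. The comparisons ask how the kidneys of these strains differ on the low-salt diet.

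On 8 of the 9 arrays, 60.1% to 70.3% of probes were well above background, and the number of arrays limits the precision of every value. SHR replicate 3 stood apart, with 43.1% of probes above background and 7.93% of spots marked as outliers, against 1.49% to 2.62% elsewhere. Results that rest on it are given with and without it. Dahl S replicate 1 was the next least similar array. Its highest correlation with any other array was 0.974, against 0.956 for SHR replicate 3 and 0.994 to 0.997 for the rest. The file headers place the arrays in 3 scans: scan 1 held the Dahl S arrays and Dahl R replicate 1, scan 2 held Dahl R replicates 2 and 3 and SHR replicates 1 and 2, and scan 3 held SHR replicate 3 alone. Dahl S and SHR therefore shared no scan. Umod, made by the thick limb of the kidney tubule, and Lrp2, the endocytic receptor of the proximal tubule, were well above background on all 9 arrays.

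A level is the processed signal of a spot on the log2 scale, counted from the 75th percentile of all spots on its array, so 0 lies at that percentile. A difference is the mean level of one strain minus that of another, with its standard error (SE) from limma. Each gene had 1 probe in 1 spot. Levels of different genes are not set against each other, because probes differ in brightness. The RNA came from whole tissue, so fewer cells of a type and less RNA per cell cannot be told apart.

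The promoters of the main proximal tubule cotransporters are printed to show how the sequences just before their start sites differ. The sequences come from RefSeq's GRCr8 assembly, run 5′ to 3′ on the gene's strand, and hold the 250 bases before the start. That table held 7 of the 10 genes. Capitals mark 2 searched motifs on either strand, which do not overlap here: TATAAA, the TATA box, and AGGTCA, a core of sites for nuclear receptors.
Slc34a1, chr17:9238984-9239233, minus strand: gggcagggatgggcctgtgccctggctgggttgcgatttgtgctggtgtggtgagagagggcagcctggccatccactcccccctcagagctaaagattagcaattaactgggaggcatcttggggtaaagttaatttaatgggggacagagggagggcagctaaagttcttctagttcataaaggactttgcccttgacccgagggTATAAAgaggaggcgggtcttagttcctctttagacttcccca
Slc34a3, chr3:28447998-28448247, minus strand: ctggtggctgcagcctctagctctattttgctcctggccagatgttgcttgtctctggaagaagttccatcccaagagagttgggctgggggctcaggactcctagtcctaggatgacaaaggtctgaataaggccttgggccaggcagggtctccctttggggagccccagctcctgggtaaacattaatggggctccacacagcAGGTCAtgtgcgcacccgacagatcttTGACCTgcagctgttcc
The Slc34a1 window held TATAAA on its own strand from position -43, counted from -1 at the base before the start, and no AGGTCA. The Slc34a3 window held no TATAAA, but had the nuclear receptor core from -44 on its own strand and from -17 on the opposite one. Of all 33469 promoters in the table, 12.9% held TATAAA and 14.1% held AGGTCA on either strand. These are matches of letters, and binding was not measured.

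No gene of the set passed an adjusted p of 0.05 in any comparison over all 9 arrays: 0 of 8 in Dahl S against Dahl R, where 1.4% of the 16592 tested probes passed, 0 of 8 in SHR against Dahl R, where 13% passed, and 0 of 8 in Dahl S against SHR, where 15.7% passed. By unadjusted limma p, 1 gene lay under 0.05 in Dahl S against Dahl R (Kl), 0 in SHR against Dahl R and 1 in Dahl S against SHR (Slc20a1). The shares of all tested probes under that unadjusted p were not counted, and are at least the shares past the adjusted p. Without SHR replicate 3 the counts were 0, 0 and 2 of 8, beside 4.59%, 22.7% and 26.2% of all probes tested then. The median difference over the 8 genes was 0.06, 0.12 and 0.08 in these comparisons, beside 0.02, 0.11 and -0.09 over all tested probes. The arrays of the strains did not overlap for 2, 2 and 1 of the 8 genes, against 31.1%, 38.7% and 37.9% of all tested probes.

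**Figure D1:**
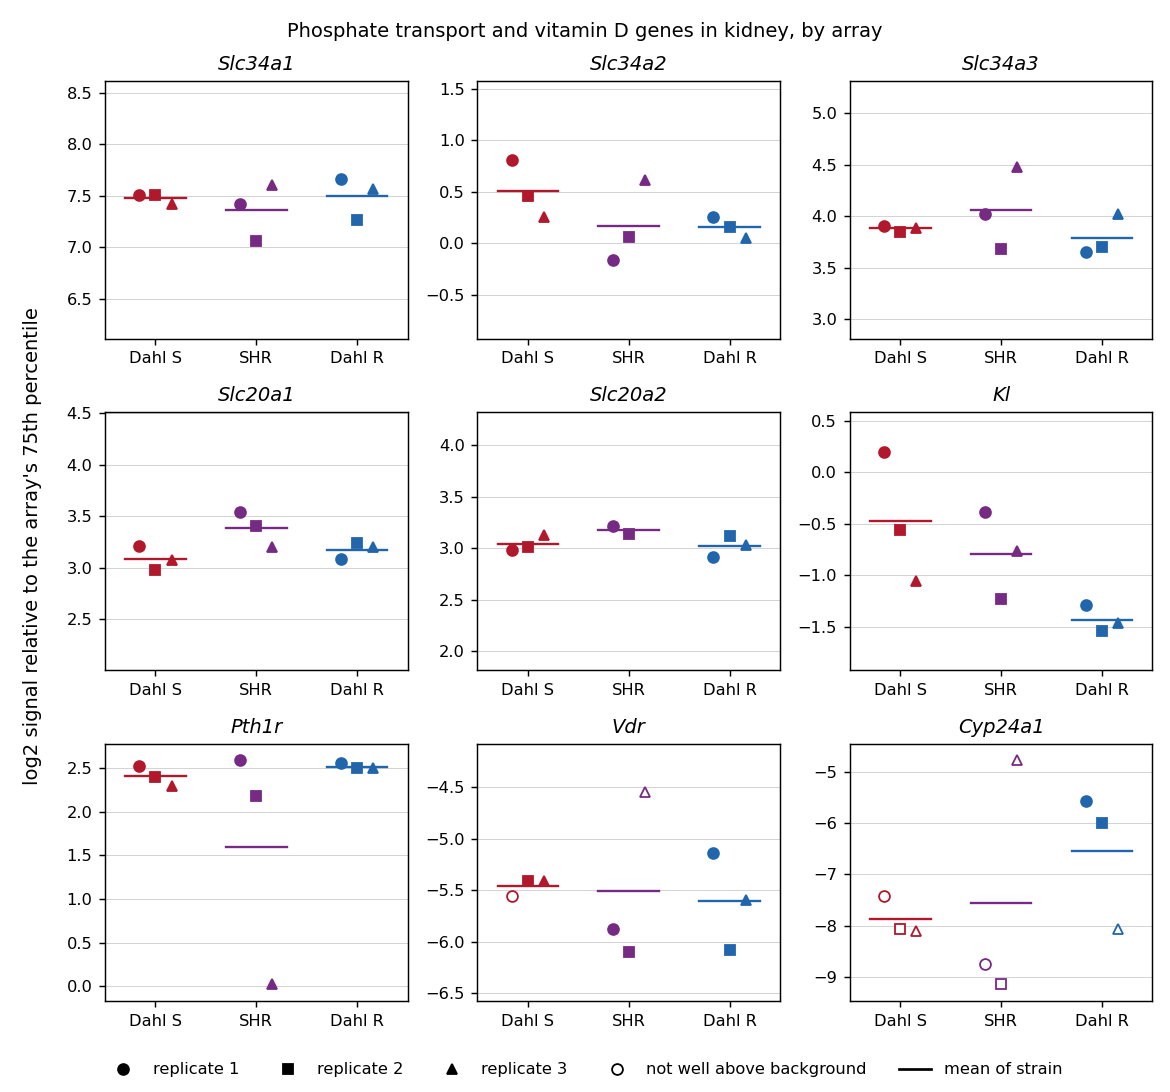
Level of each gene by array, on the log2 scale and counted from that array's 75th percentile, with Dahl S, SHR and Dahl R from left to right, 1 symbol per array and a line at the strain mean; each panel has its own axis. Slc34a1 lies between 7.06 and 7.66 on every array, all 3 Kl levels of Dahl R lie below every Dahl S and SHR level, and the Pth1r level of SHR replicate 3 lies far below the other 8.

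Slc34a1 encodes the brush-border cotransporter that takes up most filtered phosphate in rodents. Its level was 7.50, 7.51 and 7.42 in Dahl S, 7.42, 7.06 and 7.61 in SHR, and 7.66, 7.27 and 7.57 in Dahl R. The strains overlapped fully, with the lowest of the 9 levels in SHR and the highest in Dahl R. The difference between Dahl S and Dahl R was -0.02 ± 0.16 (SE, n = 3 and 3, adjusted p = 0.996), with a 95% confidence interval of 0.760- to 1.28-fold. Between SHR and Dahl R it was -0.14 ± 0.16 (adjusted p = 0.617, interval 0.702- to 1.18-fold). Between Dahl S and SHR it was 0.11 ± 0.16 (adjusted p = 0.654, interval 0.835- to 1.40-fold). Without SHR replicate 3 these last 2 differences were -0.26 ± 0.15 (adjusted p = 0.268) and 0.24 ± 0.15 (adjusted p = 0.285). Within scans the values were -0.19 in scan 1 for Dahl S against Dahl R and -0.18 in scan 2 for SHR against Dahl R. The direction turned in all 3 comparisons under quantile normalization and in the authors' deposited values.

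Slc34a3 encodes the other renal brush-border cotransporter of this family, which is more abundant in young rats. Its level was 3.91, 3.85 and 3.89 in Dahl S, 4.02, 3.68 and 4.47 in SHR, and 3.65, 3.70 and 4.02 in Dahl R. The Dahl S arrays lay within 0.06 of each other, and SHR replicate 3 was the highest of the 9. Dahl S differed from Dahl R by 0.09 ± 0.20 (adjusted p = 0.964) and from SHR by -0.18 ± 0.20 (adjusted p = 0.571). SHR differed from Dahl R by 0.27 ± 0.20 (adjusted p = 0.422), which became 0.06 ± 0.14 without SHR replicate 3 and -0.01 within scan 2. Without that array the difference of Dahl S against SHR turned to 0.03 ± 0.14 (adjusted p = 0.896), and with scan as a fixed block to 0.24.

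Proximal tubule markers are given beside these 2 transporters because both are made there. In SHR against Dahl R, 6 of 16 tested proximal tubule markers were lower and 0 were higher, with a median difference of -0.44. Of all tested probes, 5.49% were lower and 7.56% higher. The mean level over the 10 markers usable on every array was 3.06 to 3.11 in SHR, 3.36 to 3.70 in Dahl S and 3.60 to 3.67 in Dahl R. In SHR against Dahl R these 10 ranged from -2.58 for Slc4a4 to 0.18 for Kap. The part of these markers in the transporters' values was not tested.

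Slc34a2 encodes the cotransporter of the family known from intestine and lung. Its level was 0.81, 0.46 and 0.26 in Dahl S, -0.16, 0.06 and 0.61 in SHR, and 0.26, 0.16 and 0.05 in Dahl R. All Dahl S levels lay above the Dahl R levels, though by little. The SHR levels overlapped both, with the lowest of the 9 among them, while Dahl S replicate 1 lay above every SHR array. The excess of Dahl S over Dahl R was 0.35 ± 0.22 (adjusted p = 0.688, interval 0.900- to 1.81-fold), and 0.25 within scan 1. In SHR against Dahl R the difference was 0.02 ± 0.22 (adjusted p = 0.969), which turned to -0.20 ± 0.17 without SHR replicate 3 (adjusted p = 0.442) and to -0.15 within scan 2. In Dahl S against SHR it was 0.34 ± 0.22 over all arrays (adjusted p = 0.329). Without SHR replicate 3 the Dahl S excess over SHR was 0.56 ± 0.17 and passed (adjusted p = 0.0490), in a fit where the 2 SHR arrays were taken to vary like the other strains. That fit held no term for scan, and Dahl S and SHR shared no scan. With scan as a fixed block over all arrays the difference did not pass.

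Slc20a1 and Slc20a2 encode the other family of sodium-phosphate cotransporters, found in most tissues; in the kidney the Slc20a2 protein also lies in the proximal brush border. Slc20a1 had levels of 3.21, 2.98 and 3.07 in Dahl S, 3.54, 3.40 and 3.20 in SHR, and 3.09, 3.24 and 3.20 in Dahl R. The 2 highest levels were in SHR and the 2 lowest in Dahl S, with overlap between all strains. In Dahl S against SHR the difference was -0.29 ± 0.12 (unadjusted p = 0.0360, adjusted p = 0.130, interval 0.677- to 0.983-fold). Without SHR replicate 3, which was the lowest SHR array, the difference was -0.38 ± 0.10 and passed (adjusted p = 0.0283). These strains shared no scan, and with scan as a fixed block over all arrays the difference did not pass. SHR differed from Dahl R by 0.21 ± 0.12 (adjusted p = 0.294; 0.25 within scan 2), and Dahl S from Dahl R by -0.09 ± 0.12 (adjusted p = 0.913).

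Slc20a2 had levels of 2.99, 3.02 and 3.13 in Dahl S, 3.22 and 3.14 in SHR, and 2.92, 3.12 and 3.03 in Dahl R. The spot of SHR replicate 3 was marked as an outlier and left out of the fit, so SHR had 2 values, both above every level of the other strains. By limma SHR differed from Dahl R by 0.16 ± 0.11 (adjusted p = 0.396), Dahl S from SHR by -0.14 ± 0.11 (adjusted p = 0.424) and Dahl S from Dahl R by 0.02 ± 0.10 (adjusted p = 0.992). The last of these had an interval of 0.864- to 1.19-fold, the narrowest among the 8 genes.

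Among the receptors, Kl is the co-receptor that lets FGF23 act on the kidney, and it is made mostly in the distal tubule. Its level was 0.20, -0.56 and -1.05 in Dahl S, -0.38, -1.23 and -0.76 in SHR, and -1.29, -1.54 and -1.46 in Dahl R. Every Dahl S and SHR array lay above every Dahl R array, and Dahl S ranged most widely, over 1.26. Dahl S differed from Dahl R by 0.96 ± 0.33, or 1.94-fold (n = 3 and 3, unadjusted p = 0.0202, adjusted p = 0.325, interval 1.14- to 3.30-fold), so the difference did not pass. It was 0.82 within scan 1 and 0.62 without Dahl S replicate 1, the brightest array for this gene. SHR differed from Dahl R by 0.64 ± 0.33, or 1.55-fold (adjusted p = 0.256, interval 0.915- to 2.64-fold), and by 0.69 within scan 2. For Dahl S against SHR the difference was 0.32 ± 0.33 (adjusted p = 0.528), which was -0.01 without Dahl S replicate 1.

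Distal tubule markers are given beside Kl. In each comparison 0 of the 5 tested markers passed by limma, and 0, 1 and 1 had an unadjusted p under 0.05 in Dahl S against Dahl R, SHR against Dahl R and Dahl S against SHR. The mean level over 4 of them was 3.80 to 3.91 in Dahl S, 3.86 to 4.08 in SHR and 3.80 to 3.95 in Dahl R, with overlap between all strains. Some markers of other cells did move in Dahl S against Dahl R, beside Kl and the other differences of that comparison. Of 6 injured tubule markers, 2 passed as higher in Dahl S (Havcr1 by 3.30 and Spp1 by 1.34) and 0 passed as lower (median over the list 0.63). Krt20, of the same list, went the other way without passing, with means of -5.78 in Dahl S and -4.03 in Dahl R and no overlap. The mean level over the 4 injured tubule markers usable on every array was -0.04, -0.56 and -0.72 in Dahl S. It was -1.53, -1.53 and -1.98 in SHR, and -0.79, -0.96 and -1.44 in Dahl R. Dahl S replicate 1 was the highest of the 9 arrays for these markers and for Kl. That array was also the highest for the proximal tubule (3.70), red cell (4.16) and fibroblast (5.08) markers. It was not the highest for every list, with distal tubule markers at 3.91 there and 4.08 on SHR replicate 1. Of 7 red cell markers, 1 was higher in Dahl S than in Dahl R (Slc4a1 by 0.78, median 0.98), with a mean over 5 of 3.95 to 4.16 in Dahl S and 3.15 to 3.64 in Dahl R. Of 5 fibroblast markers, 1 was higher (Dcn by 1.86, median 0.18), with a mean over 3 of 4.52 to 5.08 in Dahl S and 3.82 to 4.17 in Dahl R. Dcn itself is in that mean, beside Col1a2 (5.43 in Dahl S and 5.26 in Dahl R) and Pdgfra (3.47 and 3.38). Of the others, Tagln was at 4.88 and 4.38, and Pdgfrb went the other way, at 2.94 and 3.20. The part of these markers in the Kl values and in the other differences between Dahl S and Dahl R was not tested.

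Pth1r encodes the receptor of parathyroid hormone. Its level was 2.52, 2.40 and 2.30 in Dahl S, 2.59, 2.18 and 0.02 in SHR, and 2.55, 2.50 and 2.50 in Dahl R. The other 8 arrays lay between 2.18 and 2.59, and only SHR replicate 3 was low, with a spot that was well above background and carried no outlier mark. SHR differed from Dahl R by -0.92 ± 0.58 over all arrays (adjusted p = 0.348) and by -0.13 ± 0.13 without SHR replicate 3 (adjusted p = 0.530). For Dahl S against SHR the difference was 0.81 ± 0.58 (adjusted p = 0.373), and 0.02 ± 0.13 without that array (adjusted p = 0.912). For Dahl S against Dahl R it was -0.11 ± 0.58 (adjusted p = 0.992; -0.15 within scan 1). Since the strains share 1 estimate of the spread, that SE was 0.12 without SHR replicate 3 (adjusted p = 0.618).

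Vdr encodes the nuclear receptor of active vitamin D, and its spot was dim. It was well above background on 2 Dahl S, 2 SHR and 3 Dahl R arrays. Its level was -5.56, -5.42 and -5.42 in Dahl S, -5.88, -6.10 and -4.55 in SHR, and -5.14, -6.08 and -5.60 in Dahl R. The strains overlapped, and the highest level, that of SHR replicate 3, was not well above background there, nor was Dahl S replicate 1. Differences were 0.14 ± 0.41 in Dahl S against Dahl R (adjusted p = 0.979), 0.09 ± 0.41 in SHR against Dahl R (adjusted p = 0.904) and 0.05 ± 0.41 in Dahl S against SHR (adjusted p = 0.947). The first of these intervals ran from 0.572- to 2.12-fold, and the value was -0.33 within scan 1. The other 2 values rested on SHR replicate 3: without it, they were -0.39 ± 0.25 in SHR against Dahl R (adjusted p = 0.323; -0.15 within scan 2) and 0.53 ± 0.25 in Dahl S against SHR (adjusted p = 0.166). With normexp background correction the difference was 1.16 in Dahl S against Dahl R and 1.02 in Dahl S against SHR. With quantile normalization it was -0.79 in SHR against Dahl R and 0.94 in Dahl S against SHR. None of these passed.

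Cyp24a1 encodes the enzyme that inactivates vitamin D, and it is switched on by Vdr. It was well above background only on Dahl R replicates 1 and 2 and was not tested. Its level was -7.42, -8.07 and -8.11 in Dahl S, -8.76, -9.15 and -4.77 in SHR, and -5.57, -6.00 and -8.06 in Dahl R. The 2 measured Dahl R levels were the highest apart from SHR replicate 3, whose spot was not well above background. The Dahl R mean of -6.54 lay below the signal limits of both other strains, so no fold is given. A limit here is the lowest signal well above background on each array, averaged over the strain. These limits were -6.44 in Dahl S and -5.82 in SHR. A spot above its array's limit can still fail to be well above background, as Vdr did on Dahl S replicate 1 (-5.56, array limit -6.18). The SHR limit rested on SHR replicate 3, at -2.99, while SHR replicates 1 and 2 had limits of -7.02 and -7.45, below the Dahl R mean. Dahl R replicates 1 and 2 lay above the averaged Dahl S limit. By array the Dahl S limits were -6.18, -7.21 and -5.92, and Dahl R replicate 2 lay below the last of these.

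**Figure D2:**
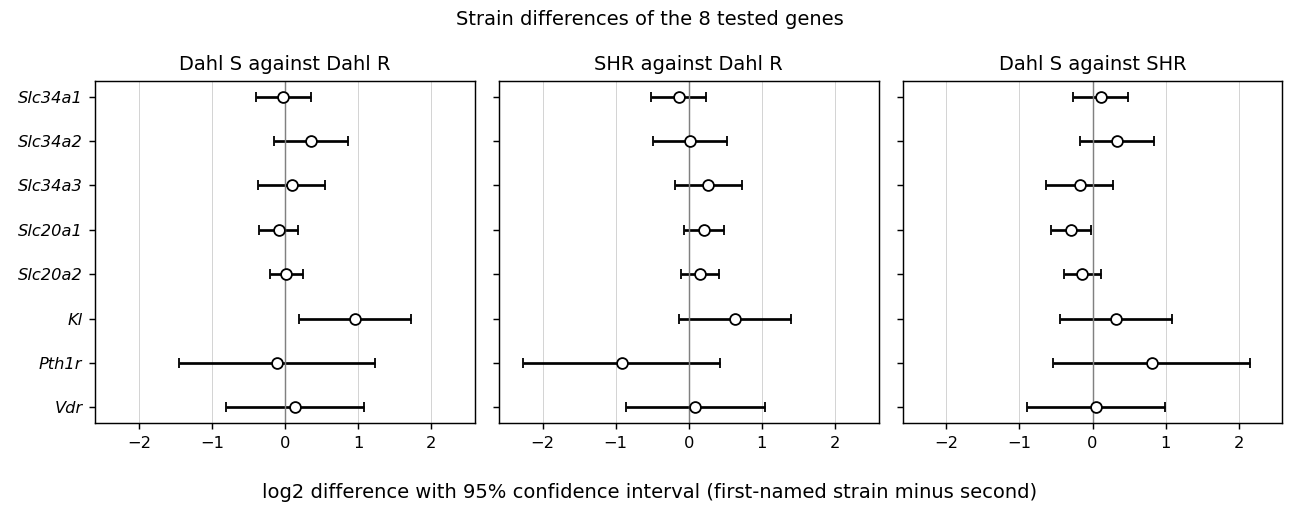
Differences of the 8 tested genes (log2, first-named strain minus second) with 95% confidence intervals, in 1 panel per comparison. The intervals of Kl in Dahl S against Dahl R and of Slc20a1 in Dahl S against SHR leave out 0, neither passes the adjusted p, and Pth1r has the widest intervals with SHR replicate 3 included.

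The genes whose levels followed these most closely over the 9 arrays are given as a description, over 9004 genes measured on every array. For Slc34a1 they were Rpl27, a ribosomal protein gene, with Pearson's r of 0.921, Plac8 with 0.899 and Plscr3 with 0.865. For Kl they were Rnf111, a ubiquitin ligase gene, with 0.951, Trmt1, a tRNA methyltransferase gene, with 0.932 and Fcrl2 with 0.911. Without SHR replicate 3 the values were 0.914, 0.889 and 0.861 for Slc34a1 and 0.958, 0.944 and 0.932 for Kl. The arrays shared scans and scaling, and the closest of many genes are bound to correlate.

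Other genes of phosphate handling were taken from a named list, of which 25 had a probe and 21 were tested. Of all tested probes, 0.705% were higher and 0.699% lower in Dahl S against Dahl R, 7.56% higher and 5.49% lower in SHR against Dahl R, and 7.08% higher and 8.62% lower in Dahl S against SHR. In Dahl S against Dahl R, 1 phosphate gene was higher and 0 were lower (median -0.09). In SHR against Dahl R, 1 was higher and 2 were lower (median -0.07), and in Dahl S against SHR, 3 were higher and 1 was lower (median 0.22). Nherf1 and Pdzk1, the scaffolds that hold Slc34a1 in the brush border, passed in no comparison, with differences of -0.16 and 0.25 in Dahl S against Dahl R and -0.38 and 0.09 in SHR against Dahl R. Nor did Fgfr1, the receptor that pairs with Kl (-0.38 and -0.62 in the same comparisons), or Phex, a peptidase that restrains FGF23 (0.37 and -0.92, and not well above background on any SHR array). Within scan 2, which did not hold SHR replicate 3, SHR differed from Dahl R by -0.03 for Fgfr1 and -1.63 for Phex. Fgfr1 was well above background on 2 SHR arrays.

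Slc17a3, which carries phosphate and organic anions such as urate, had levels of 0.45, 0.28 and 1.02 in SHR against 5.20, 5.08 and 5.12 in Dahl R. It was 23.5-fold lower in SHR than in Dahl R (difference -4.55 ± 0.18, adjusted p = 8.97e-06), and -4.74 within scan 2. Enpp1, which makes the mineralization inhibitor pyrophosphate, differed between all strains, with levels of 1.07, 0.67 and 0.72 in Dahl S, 0.26, -0.15 and -0.12 in SHR, and -0.77, -0.85 and -1.02 in Dahl R. It was 3.24-fold higher in Dahl S than in Dahl R (1.70 ± 0.16, adjusted p = 0.00248; 1.59 within scan 1) and 1.83-fold higher in SHR than in Dahl R (0.87 ± 0.16, adjusted p = 0.0117; 0.99 within scan 2), and this last call was lost without Dahl R replicate 3 (0.80, adjusted p = 0.0510). Galnt3, which glycosylates FGF23 and keeps it intact, was lower in SHR than in Dahl R (-1.07 ± 0.16, adjusted p = 0.00461; -1.09 within scan 2). Nherf2, a further scaffold, was 0.42 ± 0.11 lower in Dahl S than in SHR (adjusted p = 0.0398).

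Of the vitamin D handling list, 12 had a probe and 11 were tested, with 0 higher and 1 lower in Dahl S against Dahl R (median -0.03), 1 higher and 1 lower in SHR against Dahl R (median 0.02), and 2 higher and 1 lower in Dahl S against SHR (median 0.03). Gc, the vitamin D carrier of plasma, was 2.69-fold lower in Dahl S than in Dahl R (-1.43 ± 0.19, adjusted p = 0.0199; -1.71 within scan 1). That call was lost without any 1 of Dahl S replicates 2 and 3 and the Dahl R arrays (differences -1.51 to -1.29, adjusted p 0.0697 to 0.101). Cyp2r1, which adds the first hydroxyl group to vitamin D, was 4.02-fold lower in SHR than in Dahl R (-2.01 ± 0.40, adjusted p = 0.0166; -1.54 within scan 2). Cyp2r1 was well above background on 2 SHR arrays and not on SHR replicate 3, which had the lowest SHR level (-4.68). Without that array the difference was -1.49. The call was lost without any 1 Dahl R array (adjusted p 0.0554 to 0.0663). Cyp27a1, which can add the same group, was 1.62-fold higher in SHR than in Dahl R (0.69 ± 0.09, adjusted p = 0.00295; 0.67 within scan 2). Lrp2, which brings filtered vitamin D into the cell, passed in no comparison (0.13, 0.02 and 0.10), and its partners Cubn (0.44 ± 0.10, adjusted p = 0.0308) and Dab2 (1.33 ± 0.32, adjusted p = 0.0283) were higher in Dahl S, set against SHR.

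**Figure D3:**
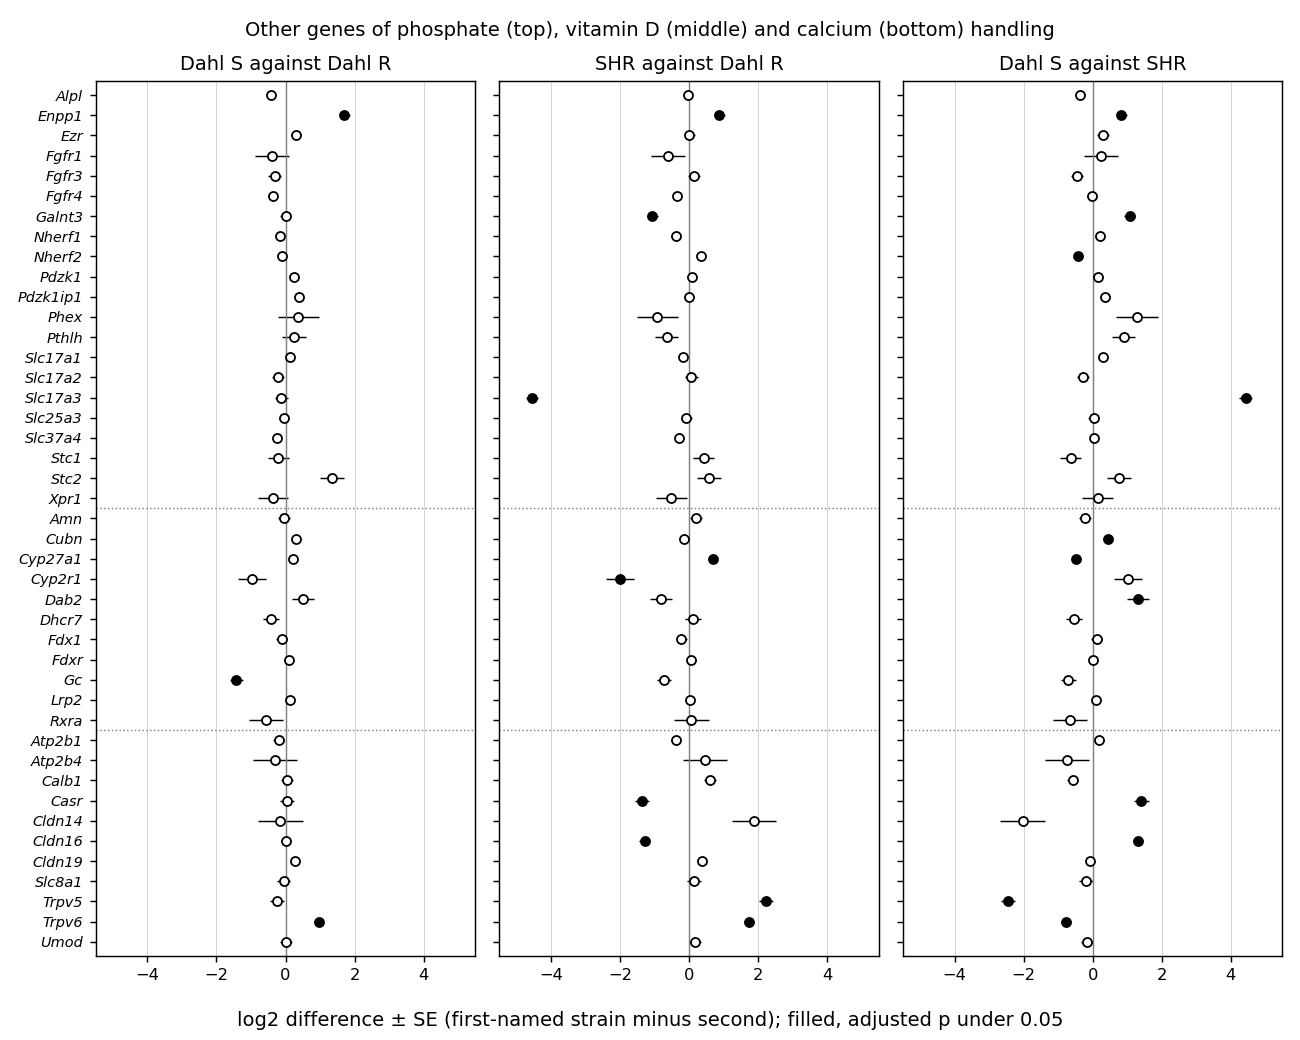
Differences (log2, first-named strain minus second, ± SE) of the tested genes of phosphate, vitamin D and calcium handling, from top to bottom, in 1 panel per comparison; filled points passed an adjusted p of 0.05. Slc17a3 has the largest difference in both comparisons with SHR, and Enpp1 is filled in all 3 panels.

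Of the calcium transport list, 12 had a probe and 11 were tested, with 1 higher and 0 lower in Dahl S against Dahl R (median 0.01), 2 higher and 2 lower in SHR against Dahl R (median 0.37), and 2 higher and 2 lower in Dahl S against SHR (median -0.20). The vitamin D target Trpv5, the calcium channel of the distal tubule, was 4.65-fold higher in SHR than in Dahl R (2.22 ± 0.20, adjusted p = 0.000518; 2.26 within scan 2). Trpv6, the related channel, was 3.32-fold higher in SHR than in Dahl R (1.73 ± 0.13, adjusted p = 0.000188; 1.62 within scan 2), and neither was well above background on SHR replicate 3. Trpv6 was also 1.95-fold higher in Dahl S than in Dahl R (0.96 ± 0.13, adjusted p = 0.0141). That call was lost with scan as a fixed block (0.97, adjusted p = 0.0573), held with scan as a random block (0.94, adjusted p = 0.0154), and was lost without any 1 of Dahl S replicates 2 and 3 and the Dahl R arrays (0.92 to 0.98, adjusted p 0.0646 to 0.0851). Probe sequences were not used here, so signal shared between these similar channels was not tested.

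Calb1, the calcium-binding protein that works with Trpv5, was at 6.60, 6.87 and 6.92 in SHR against 6.11, 5.97 and 6.45 in Dahl R, without overlap, and missed the threshold (0.62 ± 0.17, adjusted p = 0.0541). Casr, the calcium-sensing receptor, was 2.57-fold lower in SHR than in Dahl R (-1.36 ± 0.21, adjusted p = 0.00640; -1.47 within scan 2), and Cldn16, a thick limb junction protein that lets calcium and magnesium pass, was 2.45-fold lower (-1.29 ± 0.15, adjusted p = 0.00168; -1.13 within scan 2). Beside these, 2 of 6 thick limb markers were higher in SHR than in Dahl R and 0 were lower, and Umod differed by 0.17 ± 0.17 (adjusted p = 0.546). Of 12 collecting duct markers, 8 were higher in SHR than in Dahl R (median 0.75), with a mean over 8 markers of 1.46 to 1.66 in SHR and 0.68 to 1.00 in Dahl R. Their part in these differences was not tested.

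In Dahl S against SHR the 11 list genes past the threshold were Slc17a3 (4.43), Casr (1.41), Dab2 (1.33), Cldn16 (1.31), Galnt3 (1.07), Enpp1 (0.82) and Cubn (0.44), higher in Dahl S, and Trpv5 (-2.46), Trpv6 (-0.77), Cyp27a1 (-0.49) and Nherf2 (-0.42), lower in Dahl S. With scan as a fixed block, which compares these strains only through Dahl R, Slc17a3, Cldn16 and Trpv5 still passed and the others did not (adjusted p 0.0534 to 0.700). With scan as a random block Casr, Galnt3 and Trpv6 passed as well, and the calls of Dab2, Cubn, Nherf2, Cyp27a1 and Enpp1 were lost (adjusted p 0.0763 to 0.337). The direction of Trpv6 turned under normexp background correction (0.07, adjusted p = 0.933). The call of Cubn was lost without any 1 array except SHR replicate 3 (0.39 to 0.48, adjusted p 0.0584 to 0.0907). Those of Dab2 (1.29 to 1.36, adjusted p 0.0501 to 0.0864) and Nherf2 (-0.47 to -0.39, adjusted p 0.0702 to 0.123) were lost without any 1 of the Dahl S arrays, Dahl R replicates 2 and 3 and SHR replicate 1. Without Dahl S replicate 2 Cyp27a1 was lost as well (-0.43, adjusted p = 0.0534).

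Other scalings ended more calls of the list genes, while Slc17a3 and Cldn16 passed under all 18 alternatives in both comparisons with SHR. In Dahl S against Dahl R, normexp ended those of Gc and Trpv6 (adjusted p = 0.0976 and 0.421), and the percentile over spots without an outlier mark ended all 3 (adjusted p 0.0949 to 1.00). In SHR against Dahl R, normexp ended those of Cyp27a1, Enpp1, Cyp2r1, Trpv5 and Trpv6 (adjusted p 0.0663 to 0.182), and that percentile ended those of Casr, Galnt3, Cyp27a1 and Enpp1 (adjusted p 0.0809 to 0.371). Cyp2r1 was also lost under quantile normalization (-3.10, adjusted p = 0.162). Between Dahl S and SHR, Casr alone passed under normexp beside Slc17a3 and Cldn16, and Trpv5 alone did so under that percentile.

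**Figure D4:**
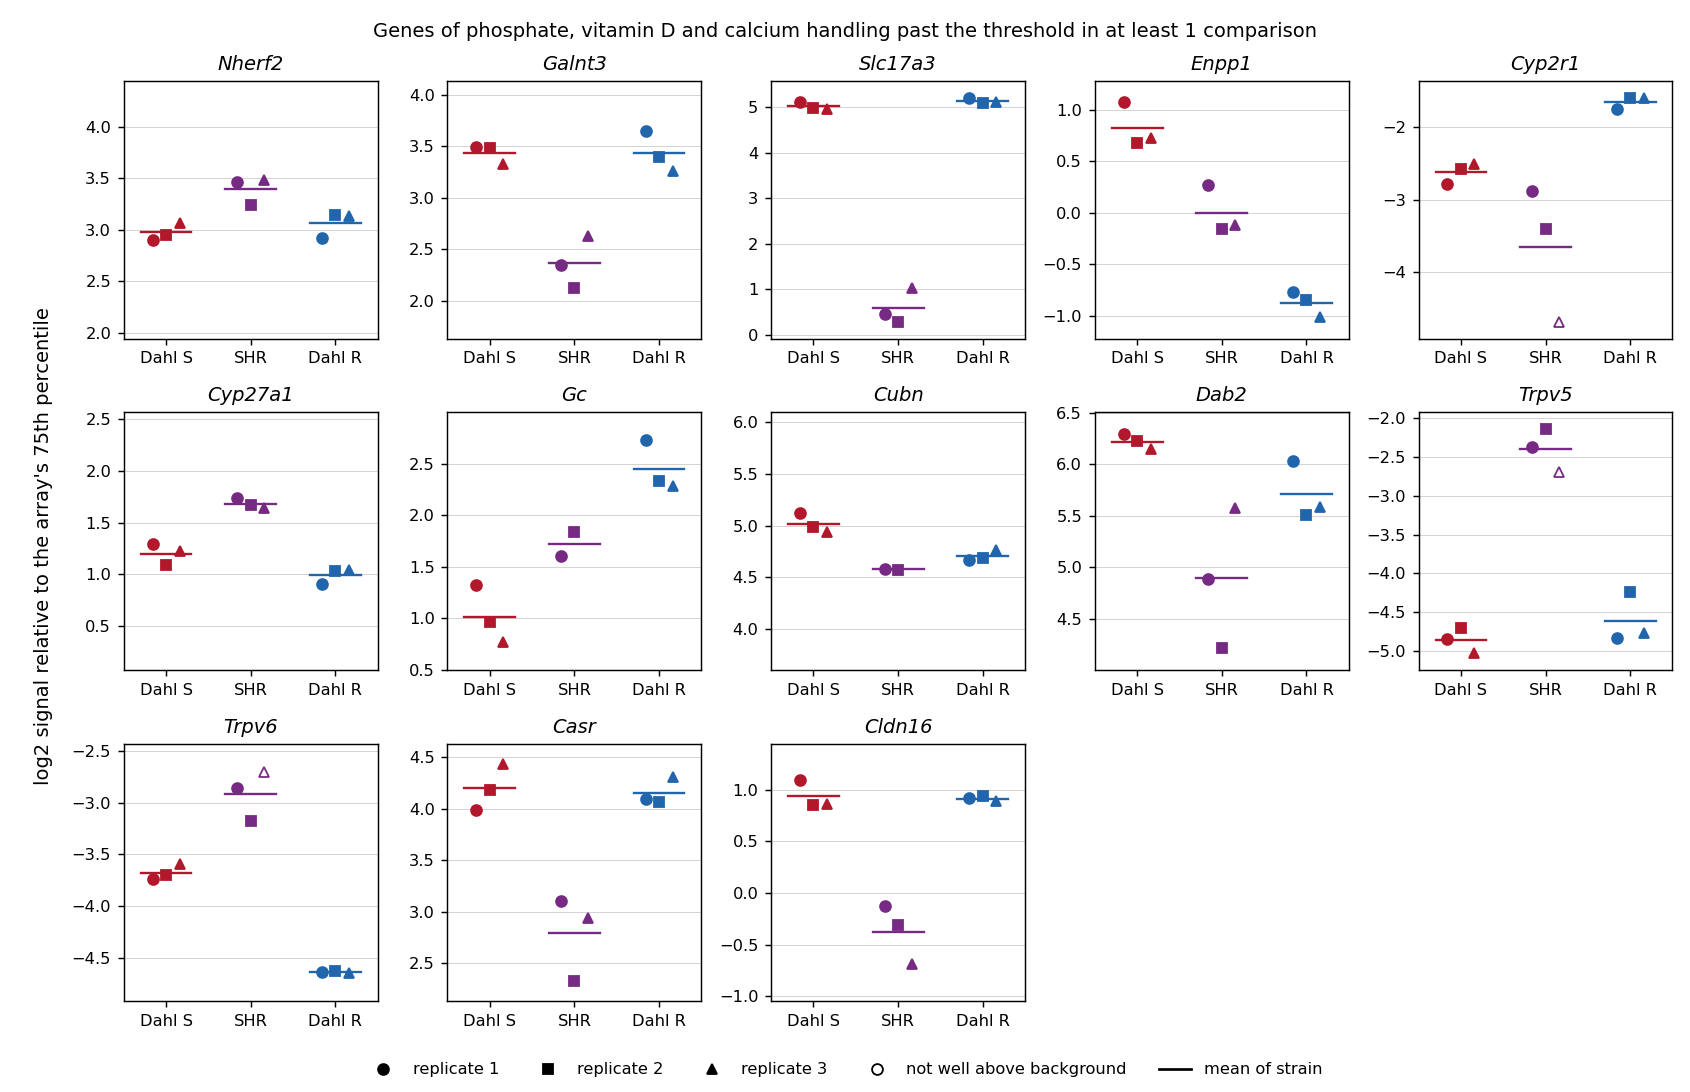
Level by array of each list gene that passed in at least 1 comparison, on the log2 scale and counted from that array's 75th percentile, with Dahl S, SHR and Dahl R from left to right; open symbols were not well above background, and each panel has its own axis. Slc17a3, Galnt3, Casr and Cldn16 are low on all 3 SHR arrays, and Enpp1 steps down across the 3 strains. Trpv5 is high in SHR, with an open symbol for SHR replicate 3.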

How the data were processed

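The scanner output of 9 one-colour arrays was used, 3 per strain. Per the submitters' processing notes it came from Agilent Feature Extraction 10.5.1.1, and per the file headers the deposited processed signal is an intensity after background subtraction and detrending, not normalized between arrays. The authors' deposited value table was read as log2 from its correlation with the scanner signals (r of 0.974 on SHR replicate 3 and 0.999 to 1.00 on the others, column medians 9.63 to 9.64). How it was normalized is not given in the sources used here, and it served only as an alternative.

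The log2 signal of the 42136 non-control spots was taken relative to the 75th percentile of each array, outlier-marked spots then became missing, and the mean over the spots stood for a probe. Saturated spots numbered 0. Of 24684 probes, 16592 were tested: these had a share of 0.5 or more of their spots well above background on 3 or more arrays, and a usable spot in every strain. RefSeq identifiers gave 14294 probes a current symbol. The 9 arrays were fitted with limma 3.58.1 (R 4.3.3) by strain alone, with Benjamini-Hochberg adjustment over all tested probes and a threshold of 0.05. The members and gene lists were chosen with earlier results of these data known. The list genes named are those past the threshold in any comparison, plus Fgfr1, Phex, Lrp2, Cubn, Trpv5, Calb1, Nherf1, Pdzk1 and S100g (no probe matched). Umod, and the markers named beside Kl, fall outside this rule and were chosen after their values were seen.

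Replicate numbers did not pair the arrays: deviations of same-numbered arrays correlated between -0.16 and 0.06, and 0 of 3 pairs exceeded 0.1 for any pair of strains. Alternatives covered background correction, scaling, filters, scan and replicate blocks, the authors' values and leaving out each array.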

Additional observations from a re-analysis of the deposited data

How the results depend on the processing

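Each value was recomputed under 18 alternatives. The count of the 8 genes past the threshold stayed at 0 under all of them in Dahl S against Dahl R and in SHR against Dahl R, and in Dahl S against SHR it was 2 without SHR replicate 3 (Slc34a2 and Slc20a1) and 0 under the other 17. The directions of Slc34a2 and Kl in Dahl S against Dahl R, and of Slc20a1, Slc20a2, Kl and Pth1r in SHR against Dahl R, held under every alternative.

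The count of all probes past the threshold moved more. For Dahl S against Dahl R it was 233, and 43 with normexp background correction, 38 with the percentile over spots without an outlier mark, 93 with no filter on signal, and 74 to 761 when 1 array was left out. For SHR against Dahl R it was 2165, and 416 with normexp, 482 with that percentile, 1188 with no filter and 966 to 3768 when 1 array was left out. For Dahl S against SHR it was 2605, and 550 with normexp, 609 with that percentile, 1491 with no filter, 866 with scan as a fixed block, 1262 with scan as a random block and 1317 to 4340 when 1 array was left out. In each comparison the highest count came without SHR replicate 3. Of the probes past the threshold, 50.2%, 57.9% and 45.1% were higher in the first-named strain in these comparisons, and 65.1%, 41.1% and 70.4% with normexp. The percentile over unmarked spots moved the median of all probes to 0.36 in SHR against Dahl R and -0.37 in Dahl S against SHR. With replicate number as a block, 75, 1424 and 1902 probes passed in Dahl S against Dahl R, SHR against Dahl R and Dahl S against SHR, and 0 of the 8 genes. The samples share only a number, and the block ended the calls of Gc and Trpv6 in the first comparison and of Cubn and Nherf2 in the last.

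Small differences of the 8 genes changed sign without passing. With normexp, Slc34a3 (-0.061) and Slc20a2 (-0.16) did so in Dahl S against Dahl R, and Slc34a1 (-0.00031) and, among the list genes, Trpv6 (0.065) in Dahl S against SHR. With quantile normalization, Slc34a1 was at 0.026 in Dahl S against Dahl R, 0.034 in SHR against Dahl R and -0.0085 in Dahl S against SHR, and Slc34a2 (-0.0047) and Vdr (-0.79) turned in SHR against Dahl R. With the percentile over unmarked spots, Slc20a2 was at -0.0058 in Dahl S against Dahl R, Slc34a1 at 0.15 in SHR against Dahl R and -0.20 in Dahl S against SHR, and Vdr at -0.27 in the last. In the authors' values, Slc34a1 was at 0.018, 0.034 and -0.016 in the 3 comparisons, and Vdr at -0.79 in SHR against Dahl R. With scan as a fixed block, Slc20a1 (0.0018) and Vdr (-0.33) turned in Dahl S against Dahl R, Slc34a2 (-0.15), Slc34a3 (-0.0096) and Vdr (-0.15) in SHR against Dahl R, and Slc34a1 (-0.0086), Slc34a3 (0.24), Slc20a2 (0.021), Pth1r (-0.031) and Vdr (-0.17) in Dahl S against SHR. With scan as a random block, Pth1r (0.048) and Vdr (-0.29) turned in Dahl S against Dahl R, Slc34a2 (-0.079) and Vdr (-0.046) in SHR against Dahl R, and Slc34a1 (-0.0019), Slc34a3 (0.027) and Vdr (-0.24) in Dahl S against SHR.

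Leaving out 1 array gave -0.14 to 0.060 for Slc34a1, -0.032 to 0.070 for Slc20a2 and -0.098 to 0.37 for Vdr in Dahl S against Dahl R. In SHR against Dahl R it gave -0.26 to 0.014 for Slc34a1, -0.20 to 0.18 for Slc34a2 and -0.39 to 0.39 for Vdr. In Dahl S against SHR it gave -0.036 to 0.24 for Slc34a1, -0.36 to 0.031 for Slc34a3, -0.012 to 0.62 for Kl and -0.25 to 0.53 for Vdr. The cause of these changes was not tested. Signal over background limited Vdr and Cyp24a1 most. Strain variants in the sequence a probe binds were not tested.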
